A study of Mus musculus with 5 samples.

Results

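The 10 genes described here encode the contractile apparatus of vascular smooth muscle: Acta2, Tagln, Myl9, Myh11, Cnn1, Cnn2, Tpm1, Tpm2, Actn1 and Des. They were taken by symbol, and all 10 were found among the 27998 genes shared by the 5 count tables. The tables hold single cells sorted for green fluorescence from the spinal cord of Col1a1GFP reporter mice on a C57/BL6 background. EAE 1 and EAE 2 came from mice with experimental autoimmune encephalomyelitis, in which autoimmunity against myelin inflames the cord. Healthy 1, Healthy 2 and Healthy 3 came from mice without it. All 5 libraries carry the Col1a1GFP reporter, so every cell had passed a gate on a collagen promoter, and mural cells without the reporter were not sampled. The comparison asks how the contractile genes differ between smooth muscle, pericytes and fibroblasts, and how each class differs between EAE and health.

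Contractile smooth muscle shortens when myosin pulls on filaments of smooth muscle actin. Acta2 encodes that actin, Myh11 the smooth muscle myosin heavy chain and Myl9 a regulatory light chain whose phosphorylation switches the motor on. Tpm1 and Tpm2 encode tropomyosins that lie along actin, Cnn1, Cnn2 and Tagln encode calponin family proteins that bind it, Actn1 encodes an alpha-actinin that crosslinks it, and Des encodes desmin, an intermediate filament protein of muscle. Smooth muscle wraps arteries and arterioles, pericytes sit on capillaries, and fibroblasts of the cord lie in the meninges and around vessels. Activated fibroblasts that take up Acta2 are called myofibroblasts in wound and scar biology.

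In the GRCm38 (mm10) annotation GENCODE vM21 the genes lie at chr19:34241090-34255590 (Acta2), chr9:45929619-45936058 (Tagln), chr2:156775420-156781658 (Myl9), chr16:14194535-14291372 (Myh11), chr9:22099216-22109630 (Cnn1), chr10:79988584-79996062 (Cnn2), chr9:67022590-67049406 (Tpm1), chr4:43514711-43523765 (Tpm2), chr12:80167547-80260371 (Actn1) and chr1:75360329-75368579 (Des). All 10 are protein coding. Tagln, Actn1 and Des overlap genes on the opposite strand, and Actn1 also overlaps 1 on its own strand. How strand was used in counting is not given in the sources used here.

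Many contractile genes are textbook targets of serum response factor, which binds the CArG box. RefSeq promoter windows matched 8 of the 10 genes (GRCm38.p6), with no entry for Tagln and Myh11. The 250 bases before the RefSeq start site were searched, and the box reads the same on both strands. An exact box stood in 2 of the 8 windows, Myl9 and Cnn2, against 1.47% of the 32851 windows of all genes. Acta2 held 2 boxes with 1 mismatch each, and 18.6% of all windows held a box with at most 1 mismatch. The windows of Acta2 (chr19:34255374-34255623, minus strand), Myl9 (chr2:156775214-156775463, plus strand) and Cnn2 (chr10:79988350-79988599, plus strand) are shown because these genes went separate ways in fibroblasts of EAE. Capitals mark boxes with at most 1 mismatch.
Acta2: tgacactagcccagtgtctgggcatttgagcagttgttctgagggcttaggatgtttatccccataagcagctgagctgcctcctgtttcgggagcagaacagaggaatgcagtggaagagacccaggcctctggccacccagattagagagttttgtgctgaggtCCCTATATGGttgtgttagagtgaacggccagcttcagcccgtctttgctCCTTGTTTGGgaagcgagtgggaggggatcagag
Myl9: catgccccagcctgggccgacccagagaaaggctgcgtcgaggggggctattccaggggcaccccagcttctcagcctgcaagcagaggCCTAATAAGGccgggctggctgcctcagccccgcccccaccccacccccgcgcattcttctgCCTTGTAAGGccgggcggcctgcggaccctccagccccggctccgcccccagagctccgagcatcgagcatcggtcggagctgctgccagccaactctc
Cnn2: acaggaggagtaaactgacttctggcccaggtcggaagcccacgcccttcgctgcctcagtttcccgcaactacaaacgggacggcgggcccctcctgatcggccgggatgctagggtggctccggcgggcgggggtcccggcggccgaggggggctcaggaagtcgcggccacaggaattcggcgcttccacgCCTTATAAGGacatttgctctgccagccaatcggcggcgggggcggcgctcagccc
The boxes of Acta2 began 84 and 34 bases before the start site, those of Myl9 161 and 99, and that of Cnn2 56. Tpm1 also held 2 boxes with 1 mismatch, and the windows of Cnn1, Tpm2, Actn1 and Des held none. A match describes the letters of a window and says nothing of whether a factor binds there.

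The libraries of the first batch share cell barcodes. EAE 1 and Healthy 1 had 1239 barcodes in common, EAE 1 and Healthy 2 had 683, and Healthy 1 and Healthy 2 had 996, while EAE 2 and Healthy 3 shared 1. Each such barcode was kept only in the library where its UMI total was highest, which removed 2 barcodes from EAE 1, 1549 from Healthy 1 and 684 from Healthy 2. After filters on genes and mitochondrial RNA, 4678 of 7205 barcodes remained, with a median of 4540 and 5028 UMIs in EAE 1 and EAE 2, and of 1213, 3195 and 4273 in Healthy 1 to Healthy 3. A UMI is a tag that marks 1 captured RNA molecule. Nothing in the labels ties a library to an animal, so a p-value here speaks only of the spread between libraries, which may be technical.

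Classes were gated without the 10 genes. A mural cell had at least 3 UMIs of the markers Rgs5, Kcnj8, Higd1b, Pln and Lmod1 and no fewer than of Dcn and Col3a1; with at least 2 UMIs of Pln and Lmod1 it counted as smooth muscle, and with 0 as a pericyte. A fibroblast had at least 3 UMIs of Dcn and Col3a1 and at least 10 of them for each mural UMI. The gates gave 30 and 4 smooth muscle cells in EAE 1 and EAE 2, against 10, 21 and 12 in Healthy 1 to Healthy 3. They gave 13 and 23 pericytes in EAE 1 and EAE 2, against 5, 6 and 6 in Healthy 1 to Healthy 3, and 1661 and 1159 fibroblasts against 646, 383 and 350. Levels are UMIs per 1000000 UMIs of the class sum (CPM), and 1 UMI is worth 7.6 to 195 CPM in the pericyte sums but at most 1.03 CPM in the fibroblast sums.

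Summed lists of markers outside the gates followed the labels, though not every member did. The summed pericyte list (Abcc9, Vtn, Pdgfrb, Notch3 and 6 others) stood at 6929 and 5843 CPM in pericytes of EAE 1 and EAE 2, and at 5469, 5904 and 4844 CPM in those of Healthy 1 to Healthy 3. In fibroblasts the same list stood at 1019.8 to 1791 CPM. The smooth muscle list of 8 genes, which includes Sncg, Mustn1 and Gja4, reached 3373 to 6391 CPM in smooth muscle, against 881 to 2539 CPM in pericytes. Its member Casq2 had no UMI in smooth muscle of EAE 1 and of Healthy 1 to Healthy 3. Pericytes of EAE 2 and Healthy 3 did hold Casq2. Of the pericyte list, Atp13a5 had no UMI in pericytes of EAE 1, Healthy 1 and Healthy 2. Anpep had none in those of Healthy 1 and Healthy 3, nor Cox4i2 in those of Healthy 1. The pericyte class carried some smooth muscle RNA, and it includes any mural cell too shallow to give a UMI of Pln or Lmod1.

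Smooth muscle stood far above pericytes for most of the contractile genes. Together the 10 genes made up 4.39% and 2.95% of the UMIs of smooth muscle in EAE 1 and EAE 2, and 3.66%, 4.45% and 4.31% in Healthy 1 to Healthy 3. In pericytes they made up 0.496% and 0.439% in EAE, against 1.88%, 1.41% and 1.3% in health, and in fibroblasts 0.134% and 0.17% in EAE, against 0.0752%, 0.0641% and 0.0656% in health. The share was thus lower in EAE pericytes and higher in EAE fibroblasts than in any Healthy library, with no overlap. Acta2 read 12783 and 7004 CPM in smooth muscle of EAE 1 and EAE 2, and 11088, 14755 and 13457 CPM in smooth muscle of Healthy 1 to Healthy 3. The pericytes of the same libraries read 1349 and 1018 CPM in EAE, and 5273, 4264 and 3091 CPM in health. The classes did not overlap in any library. In the 4 libraries with at least 5 cells of each class, with library as a block, Acta2 was higher by a log2 fold change of 2.22 (SE 0.28) with an adjusted p of 5.67e-05 (edgeR's quasi-likelihood test).

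For Myh11, the defining heavy chain of smooth muscle, the contrast was sharper. It read 2229.8 and 2929 CPM in smooth muscle of EAE 1 and EAE 2, and 1689, 1761 and 3147 CPM in that of Healthy 1 to Healthy 3. Pericytes held 4 UMIs in each EAE library and 5, 11 and 4 in the Healthy ones. The log2 fold change of smooth muscle over pericytes was 3.05 (SE 0.57). Cnn1, a calponin restricted to differentiated smooth muscle, had 1 UMI in all pericytes together, in Healthy 2, against 81 and 18 UMIs in smooth muscle of EAE 1 and EAE 2 and 14, 45 and 63 in that of Healthy 1 to Healthy 3.

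Of the 10 genes, 8 were higher in smooth muscle than in pericytes, where 13.9% of the 793 genes tested were. Their log2 fold changes ran over Tpm1 at 1.46 (SE 0.28), Myl9 at 1.88 (SE 0.36), Actn1 at 1.91 (SE 0.35), Tpm2 at 2.00 (SE 0.31) and Tagln at 2.37 (SE 0.27), with Cnn1 at 6.06 (SE 0.66). The highest adjusted p among the 8 was 0.0103, for Myh11. The other two did not pass: Cnn2, a calponin also found outside muscle, had a log2 fold change of -0.07 (SE 0.41) with an adjusted p of 0.932 and Des one of -0.42 (SE 0.40, adjusted p = 0.517). Des read 322 and 63.7 CPM in smooth muscle of EAE 1 and EAE 2 and 389.8, 453 and 174 CPM in that of Healthy 1 to Healthy 3, beside 297 and 304 CPM and 781, 328 and 738 CPM in pericytes. Des was thus higher in smooth muscle in EAE 1 and Healthy 2 and lower there in EAE 2, Healthy 1 and Healthy 3.

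**Figure D1:**
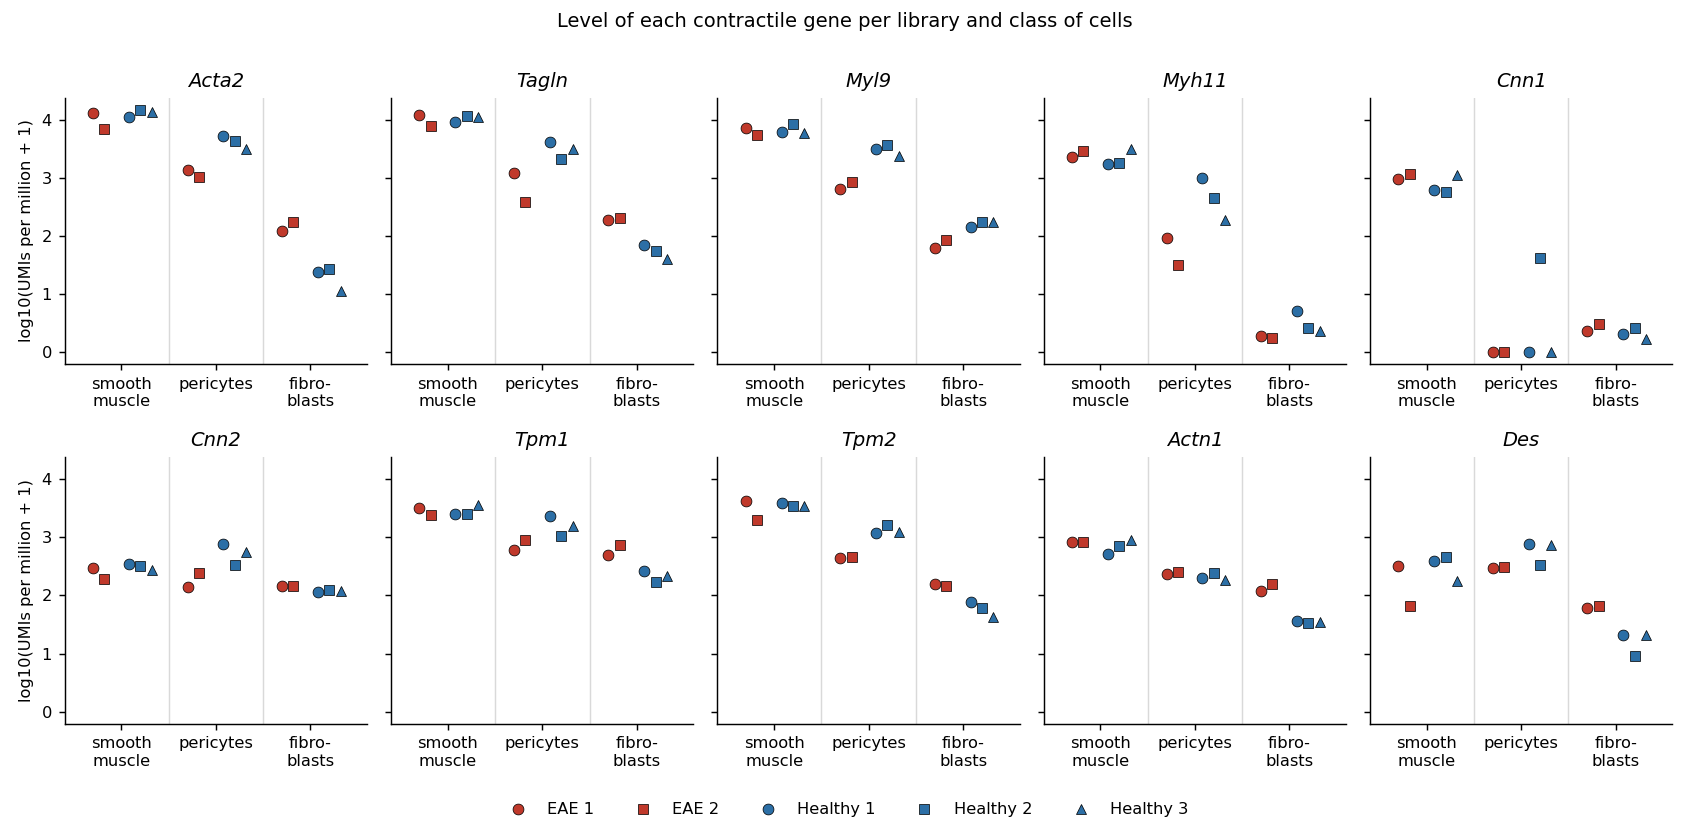
Level of each gene as log10(CPM + 1) in the summed smooth muscle, pericytes and fibroblasts of each library, EAE in red and Healthy in blue. Acta2, Tagln and Myl9 step down over the 3 classes in every library, while Cnn2 and Des do not separate smooth muscle from pericytes.

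Against fibroblasts, all 10 genes were higher in smooth muscle, where 10.4% of 7533 genes tested were. The difference ran between a log2 fold change of 1.21 (SE 0.30) for Cnn2 and 10.43 (SE 0.36) for Myh11. Acta2 was at 8.61 (SE 0.82), and its adjusted p of 0.00333 was the highest of the 10. Fibroblasts held 8 and 5 UMIs of Myh11 in EAE 1 and EAE 2, of 8658915 and 6947558 UMIs in all. Those of Healthy 1 to Healthy 3 held 4, 2 and 2, of 969236, 1242931 and 1486092 UMIs.

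Pericytes were higher than fibroblasts for 7 of the 9 genes tested, against 7.6% of 8234 genes. Myh11 differed by 7.0 (SE 0.61), Myl9 by 3.91 (SE 0.28), Des by 3.73 (SE 0.39) and Tpm2 by 3.32 (SE 0.34) on the log2 scale. Tpm1, Actn1 and Cnn2 differed by 1.81, 1.62 and 1.32, with adjusted p up to 0.00389. Under a stricter gate 4 genes passed and Tpm1 stood at -0.07 (SE 0.53). Acta2 and Tagln had log2 fold changes of 5.86 (SE 1.34, adjusted p = 0.0844) and 4.29 (SE 1.12, adjusted p = 0.117) and did not pass. Their differences were unequal between the states: Acta2 stood at 2.89 (SE 0.40) in the EAE libraries alone and at 7.66 (SE 0.37) in the Healthy libraries alone, and Tagln at 1.65 (SE 0.40) and 5.71 (SE 0.36), and each passed the test within either state.

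Fibroblasts of EAE carried more RNA of 6 contractile genes and less of Myl9. Acta2 read 119.8 and 173 CPM in fibroblasts of EAE 1 and EAE 2, against 22.7, 25.7 and 10.1 CPM in those of Healthy 1 to Healthy 3. The lower EAE library was above every Healthy one, and the log2 fold change was 2.87 (SE 0.36, adjusted p = 8.25e-04, edgeR's quasi-likelihood test with batch as a term). Actn1 read 118 and 156 CPM in EAE 1 and EAE 2, against 35.1, 32.2 and 33.6 CPM in Healthy 1 to Healthy 3. Its Healthy libraries lay close together, and it was higher by 1.89 (SE 0.21) on the log2 scale.

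Tagln, the calponin family protein also called transgelin, read 189 and 205 CPM in fibroblasts of EAE 1 and EAE 2, against 69.1, 53.9 and 39.0 CPM in Healthy 1 to Healthy 3, a log2 fold change of 1.85 (SE 0.24). Des read 60.7 and 65.3 CPM in EAE 1 and EAE 2, against 19.6, 8.05 and 19.5 CPM in Healthy 1 to Healthy 3, a log2 fold change of 1.89 (SE 0.29). Both separated the groups without overlap. Among the tropomyosins, Tpm1 read 486 and 723 CPM in EAE 1 and EAE 2, against 267, 169.8 and 219 CPM in Healthy 1 to Healthy 3. Tpm2 read 155 and 147 CPM against 77.4, 58.7 and 42.4 CPM. They rose by log2 fold changes of 1.31 (SE 0.24) and 1.35 (SE 0.22).

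Myl9 went the other way. It read 61.1 and 83.8 CPM in fibroblasts of EAE 1 and EAE 2, against 140.3, 169 and 170.2 CPM in Healthy 1 to Healthy 3. No EAE library reached the lowest Healthy one, and the log2 fold change was -1.30 (SE 0.21, adjusted p = 0.00193). Cnn2 read 146 and 147 CPM in EAE 1 and EAE 2, against 116, 121 and 120.5 CPM in Healthy 1 to Healthy 3. Its groups did not overlap, but the log2 fold change of 0.20 (SE 0.19) did not pass the test (adjusted p = 0.512). Myh11 and Cnn1 were too low in fibroblasts to test: Myh11 had 8 and 5 UMIs in EAE and 4, 2 and 2 in health, and Cnn1 had 11 and 14 UMIs in EAE and 1, 2 and 1 in health. The EAE sums were deeper. Myh11 read 0.924 and 0.72 CPM in EAE 1 and EAE 2, against 4.13, 1.61 and 1.35 CPM in Healthy 1 to Healthy 3. It thus lay lower in both EAE libraries, on few UMIs. Cnn1 read 1.27 and 2.02 CPM in EAE, against 1.03, 1.61 and 0.673 CPM in health, and overlapped.

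Of the 8 genes tested in fibroblasts 6 were thus higher in EAE, where 9.92% of 9919 genes tested were, and 1 was lower, where 10.5% were. The highest adjusted p among the 7 was 0.00376, for Tpm1. The median log2 fold change of the 8 was 1.60, against 0.01 over all genes tested. Groups did not overlap for any of the 8, as for 46.2% of all genes tested. The directions held within each batch. In the first batch alone (EAE 1 against Healthy 1 and Healthy 2) the 6 rises lay between 1.05 for Tpm1 and 2.19 for Acta2 and Myl9 stood at -1.45. In the second (EAE 2 against Healthy 3, no test) the rises lay between 1.66 for Tpm1 and 4.01 for Acta2, and Myl9 stood at -1.08.

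The shared barcodes bear on Acta2. With all barcodes as deposited, its log2 fold change in fibroblasts was 1.96 (SE 0.83) and did not pass (adjusted p = 0.26), while the other 6 genes kept their call. Other RNA moved with the states in the same sums. The dissociation genes Fos, Jun, Junb, Egr1, Hspa1a and Hspa1b, all 6 measured, summed to 5125 and 7082 CPM in fibroblasts of EAE 1 and EAE 2, against 11572, 11401 and 10857 CPM in Healthy 1 to Healthy 3. The smooth muscle list, with Casq2 at 0 in both EAE libraries, stood at 242 and 139 CPM in EAE fibroblasts and at 117, 105 and 80.1 CPM in Healthy ones, and the pericyte gene Rgs5 at 12.9 and 8.92 CPM and at 1.03, 2.41 and 1.35 CPM. Among fibroblasts without any UMI of the 5 mural gate genes, a setting chosen after seeing the data, Acta2 had a log2 fold change of 2.96 (SE 0.37) and the same number of genes, 7, passed. The part of the dissociation genes in the differences was not tested.

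The RNA in EAE fibroblasts did not keep the proportions of smooth muscle. For each 100 UMIs of Acta2, smooth muscle of EAE 1 and EAE 2 held 17.4 and 41.8 UMIs of Myh11, and fibroblasts of the same libraries held 0.771 and 0.415. For Cnn1 the values were 7.56 and 16.4 in smooth muscle and 1.06 and 1.16 in fibroblasts. Tpm1, by contrast, gave 25.0 and 34.5 in smooth muscle and 406 and 417 in fibroblasts. Immune cells, gated among the cells outside the 3 classes by at least 3 UMIs of Ptprc, Fcer1g, Laptm5, Cd52 and Coro1a, had an Acta2 UMI in 1 of 126 cells of EAE 1 and 1 of 27 of EAE 2, and melanocytes in 0 of 46 cells of EAE 1, which allows a share of up to 6.52%. Skeletal muscle markers stood at 5.77 and 4.61 CPM in fibroblasts of EAE 1 and EAE 2 and at 4.13, 3.22 and 3.36 CPM in those of Healthy 1 to Healthy 3. Other lists varied more between these sums. Osteoblast markers stood at 164 and 1.30 CPM in EAE, against 72.2, 4292 and 0.673 CPM in health. The tenocyte list, which includes Fmod, stood at 64.1 and 42.3 CPM in EAE, against 383, 373 and 513 CPM in health. The part of these cells in the differences was not tested.

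At equal depth the shares of fibroblasts with a UMI were higher in both EAE libraries than in every Healthy one for Acta2, Tagln, Tpm1, Tpm2, Actn1 and Des. They were lower for Myl9 and overlapped for Cnn2. Cnn1 and Myh11 were too rare to compare, with Cnn1 in 2 and 3 cells of EAE 1 and EAE 2 and Myh11 in 1 and 0. With cells thinned to 2000 UMIs, both overlapped between the groups. How many of all genes separate by share was not computed, but by CPM 46.2% of those tested in fibroblasts did not overlap. With each cell thinned to 1000 UMIs, Acta2 was seen in 6.5% and 6.18% of fibroblasts of EAE 1 and EAE 2, against 2.01%, 1.37% and 0.587% in Healthy 1 to Healthy 3. Without thinning the shares were 19.7% and 19.9% in EAE and 1.86%, 4.18% and 3.71% in health, at median depths of 4660 and 5170 UMIs and of 1257, 3158 and 4293.5 UMIs. Immune cells of EAE 1 and EAE 2, at medians of 3099.5 and 2343 UMIs, had an Acta2 UMI in 0.794% and 3.7% without thinning. Thinning left out 43 fibroblasts of EAE 2 and 248, 19 and 9 of Healthy 1 to Healthy 3. Tpm1 was seen in 35.9% and 41.8% of EAE fibroblasts, against 23.4%, 15.7% and 16.7% of Healthy ones, and Myl9 in 6.74% and 7.08%, against 12.6%, 12.1% and 14.1%.

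The exact two-sided permutation test gave p = 0.6 for Cnn2, whose shares overlapped between the groups, and p = 0.2 for each of the others. With 2 EAE and 3 Healthy libraries 0.2 is the smallest p the test can give, so the shares are a description. Exact Clopper-Pearson 95% intervals, which cover counting error only, ran over 5.36% to 7.8% for Acta2 in EAE 1 and 0.0711% to 2.1% in Healthy 3.

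**Figure D2:**
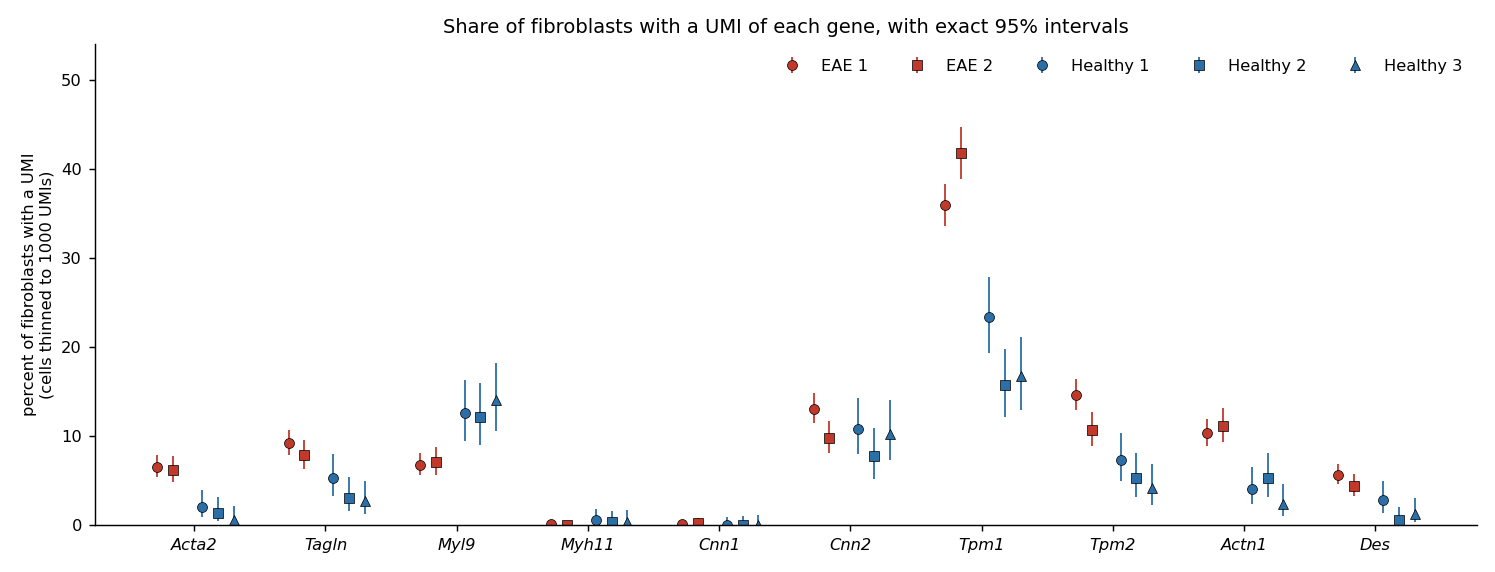
Percent of fibroblasts with a UMI of each gene after thinning every cell to 1000 UMIs, per library, EAE in red and Healthy in blue, with exact 95% intervals for counting error. Tpm1 shows the widest gap, Myl9 lies lower in EAE than in health, and Myh11 and Cnn1 stay near 0 in all 5 libraries.

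Acta2 was spread unevenly over the EAE fibroblasts. In EAE 1 its 1037 UMIs came from 328 of 1661 cells, and 5% of the cells (83) held 65.9% of them. In EAE 2 its 1205 UMIs came from 231 of 1159 cells, and 5% of the cells (57) held 72.4%. At least 5 UMIs were found in 70 and 66 fibroblasts of EAE 1 and EAE 2, up to 49 and 60 UMIs in a cell, against 1, 1 and 0 fibroblasts in Healthy 1 to Healthy 3. The Healthy libraries had fewer fibroblasts, 646, 383 and 350. Their medians were 1257, 3158 and 4293.5 UMIs, against 4660 and 5170 in EAE. These counts are without thinning, and a fixed limit of 5 UMIs is easier to reach in deeper cells. Tagln was nearly as uneven, with 57.0% and 72.6% of its UMIs in the top 5% of cells in EAE 1 and EAE 2. Tpm1 was spread more widely, with 20.9% and 27.5% there and a UMI in 77.1% and 77.3% of all EAE fibroblasts.

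Several of the 10 genes were seen more often in cells with Acta2, and these were not only genes that rose. After thinning, Tagln was seen in 32.4% and 42% of the Acta2 cells of EAE 1 and EAE 2 (108 and 69 cells), against 7.53% and 5.54% of the other fibroblasts. Tpm2 was seen in 32.4% and 29% of Acta2 cells, against 13.3% and 9.46% of the others. Actn1 was seen in 16.7% and 26.1%, against 9.85% and 10.1%. Cnn2, which did not pass between EAE and health, was seen in 22.2% and 18.8%, against 12.4% and 9.17%. Myl9 did not share this in both libraries, with 5.56% of Acta2 cells against 6.83% of the others in EAE 1 and 17.4% against 6.4% in EAE 2. Des likewise differed between the libraries, with 5.56% against 5.6% in EAE 1 and 11.6% against 3.92% in EAE 2. These shares compare cells within a library and carry no test.

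EAE fibroblasts with at least 5 Acta2 UMIs, a limit chosen after its values were seen, had more of some fibroblast markers and less of others. The list of Lum, Col1a1, Pdgfra and 5 others summed to 20540.4 and 19025 CPM in them in EAE 1 and EAE 2, against 16533 and 16156 CPM in EAE fibroblasts with no Acta2 UMI, and of this sum Col1a1 made 9601 and 9157 CPM, against 6236 and 6391 CPM. The matrix proteoglycan Dcn, a gene of the fibroblast gate, was lower in them, at 5009 and 3614 CPM, against 11024 and 10657 CPM. The smooth muscle list was lower in them, at 106 and 65.8 CPM against 257 and 169 CPM. Pln and Lmod1 are mural gate genes, which the fibroblast gate keeps low in all these cells. They had 0 CPM in EAE 1 and 2.09 CPM each in EAE 2. In cells with no Acta2 UMI, Pln and Lmod1 had 0.159 and 1.43 CPM in EAE 1 and 0 and 1.09 CPM in EAE 2. The cells with at least 5 Acta2 UMIs were deeper, with medians of 8345.5 and 14713 UMIs against 4311 and 4670. The matrix protein Tnc stood at 575 and 420.1 CPM in them, against 48.6 and 20.4 CPM, and the apolipoprotein Apod, abundant in the other EAE fibroblasts, at 1234 and 619.7 CPM, against 20072 and 27862 CPM.

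Acta2 was concentrated among fibroblasts of EAE that express Tnc, Cxcl9 or Col7a1, a matrix and chemokine set. Cells with at least 2 UMIs over these 3 genes numbered 349 and 254 in EAE 1 and EAE 2 and held Acta2 at 283 and 386 CPM, against 50.6 and 49.3 CPM in the other fibroblasts of EAE 1 and EAE 2. Tagln stood at 377 and 448 CPM inside the set and at 109 and 63.6 CPM outside it. Actn1 stood at 191 and 244 CPM inside and at 87.1 and 104 CPM outside. Both libraries had the same order for these 3 genes. The Healthy libraries had 4, 3 and 3 such cells, too few to describe. Cells inside the set were deeper in EAE 1 and EAE 2, with medians of 6735 and 9167 UMIs against 4268 and 4576.

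Outside that set Acta2, Tpm1, Tpm2, Actn1 and Des still lay higher in both EAE libraries than in every Healthy one. The share of all genes that separate in these cells was not computed. Over all fibroblasts, 46.2% of genes tested did not overlap between the groups. Acta2 outside it read 50.6 and 49.3 CPM in EAE 1 and EAE 2, against 23.0, 26.0 and 9.53 CPM in Healthy 1 to Healthy 3. Tpm1 outside it read 503 and 638 CPM in EAE, against 268, 169.8 and 216 CPM in health, and in EAE 1 it was lower inside the set (445 CPM) than outside. Tpm2 outside it read 126 and 104 CPM in EAE, against 77.2, 59.3 and 41.5 CPM in health, and Des 53.1 and 33.1 CPM, against 19.8, 8.12 and 17.0 CPM. Tagln outside it overlapped between the groups, at 109 and 63.6 CPM in EAE against 69.9, 53.6 and 32 CPM in health. Myl9 was lower in EAE both inside the set, at 48.9 and 107 CPM, and outside it, at 66.2 and 70.5 CPM, than the Healthy fibroblasts outside the set, at 142, 169 and 168 CPM.

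Acta2 differed between other sets of fibroblasts. Cells with Osr2 or Gfra1, 35 and 67 in EAE 1 and EAE 2 and 75, 95 and 130 in Healthy 1 to Healthy 3, held 0 and 1 UMIs of Acta2 in EAE and 3, 4 and 3 in health. Cells with Clec3b, Fmod or Igfbp2 held Acta2 at 54.3 and 26.4 CPM in EAE and at 8.14, 21.8 and 6.15 CPM in health, and in each library both sets lay below the remaining fibroblasts. Cells with the acute phase genes Lcn2 or Saa3 (975 and 320 in EAE 1 and EAE 2) lay above the others, with Acta2 at 122 and 219 CPM, against 116 and 150.5 CPM in the other EAE fibroblasts.

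Pericytes of EAE carried less RNA of Acta2, Tagln and Myl9, on few cells. Acta2 read 1349 and 1018 CPM in pericytes of EAE 1 and EAE 2, against 5273, 4264 and 3091 CPM in those of Healthy 1 to Healthy 3, a log2 fold change of -1.62 (SE 0.44) with an adjusted p of 0.0171. Myl9 read 640.3 and 828 CPM in EAE, against 3125, 3690.0 and 2353 CPM in health, a log2 fold change of -1.92 (SE 0.46) with an adjusted p of 0.00558. Tagln read 1189 and 379.9 CPM in EAE, against 4102, 2091 and 3091 CPM in health, a log2 fold change of -1.92 (SE 0.47) with an adjusted p of 0.00837. For all 3 the EAE libraries lay below every Healthy one.

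The other 5 genes tested had the same sign without passing the test, with adjusted p between 0.106 and 0.52. Tpm2 read 435 and 456 CPM in EAE pericytes against 1172, 1640.0 and 1246 CPM in Healthy ones, and its log2 fold change was -1.53 (SE 0.63). Myh11 was at -2.52 (SE 0.91), Cnn2 at -1.36 (SE 0.69), Tpm1 at -1.03 (SE 0.57) and Des at -0.89 (SE 0.58). Actn1 was too low to test and did not separate the groups, at 229 and 251 CPM in EAE and 195, 246 and 185 CPM in health. Thus 3 of 8 genes tested were lower, where 2.02% of 445 genes tested were, and the groups did not overlap for all 8, and EAE lay below in each, as for 14.8% of those 445. The median log2 fold change of the 8 was -1.58, against 0.00 over all genes tested.

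Counted by cell, Tagln UMIs were found in 6 of 13 and 10 of 23 pericytes of EAE 1 and EAE 2, against 4 of 5, 5 of 6 and 6 of 6 in Healthy 1 to Healthy 3. The median pericyte held 1 Acta2 UMI in each EAE library, against 6, 10 and 2 in Healthy 1 to Healthy 3, and single pericytes held up to 30 and 36 in EAE and up to 10, 56 and 54 in health. The class sums held 59 and 134 Acta2 UMIs in EAE 1 and EAE 2 and 27, 104 and 67 in Healthy 1 to Healthy 3. A single cell thus held most of them in EAE 1, Healthy 2 and Healthy 3. A class sum alone cannot tell fewer cells with the RNA from less RNA per cell.

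The pericyte result is fragile. None of the 8 genes passed without the filter on low counts, with cells thinned to 1000 UMIs, without the batch term, in the first batch alone, or without EAE 1, EAE 2, Healthy 2 or Healthy 3 in turn, and 4 passed without Healthy 1, although no setting turned a sign. Within batches Acta2 stood at -1.52 (SE 0.84) in the first and -1.62 in the second, Tagln at -1.02 (SE 0.83) and -3.01, and Myl9 at -2.16 (SE 0.88) and -1.52. Fibroblast RNA moved with the states in the same cells: the fibroblast list summed to 5214 and 3176 CPM in pericytes of EAE 1 and EAE 2, against 586, 2501 and 1199 CPM in Healthy 1 to Healthy 3, with Pdgfra at 0 in EAE 1 and in all 3 Healthy libraries. The smooth muscle list stood at 1509 and 881 CPM in EAE pericytes and at 2539, 2132 and 969 CPM in Healthy ones, and the dissociation genes at 8004 and 9361 CPM and at 8984, 17261 and 24820.1 CPM. The median pericyte held 3069 and 4591 UMIs in EAE 1 and EAE 2, against 923, 3514.5 and 3603 in Healthy 1 to Healthy 3. Among the gate genes, Rgs5 read 8027 and 9756 CPM in EAE pericytes, against 5664, 3895 and 5075 CPM in Healthy ones. Higd1b read 640 and 1200 CPM, against 195, 533 and 415 CPM. Kcnj8 overlapped, at 800 and 646 CPM against 586, 820 and 600 CPM. The part of depth, of the gate genes and of these lists in the result was not tested.

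Smooth muscle gave no call between EAE and health. EAE 2 had 4 smooth muscle cells, under the minimum of 5, so EAE 1 was set against the Healthy libraries. With batch as a term this rests on Healthy 1 and Healthy 2, and the lone EAE sum is assumed to vary as the Healthy sums do. None of the 10 genes passed edgeR's test, where 0.439% of 1595 genes tested did and 85 had an unadjusted p under 0.05, and none passed with DESeq2. Acta2 read 12783 and 7004 CPM in EAE 1 and EAE 2, against 11088, 14755 and 13457 CPM in Healthy 1 to Healthy 3. EAE 1 lay inside the Healthy range and EAE 2, with its 4 cells, below it, and the log2 fold change without EAE 2 was 0.04 (SE 0.41). Tagln was at 0.25 (SE 0.41), Myl9 at 0.01 (SE 0.42), Myh11 at 0.42 (SE 0.42) and Tpm2 at 0.27 (SE 0.42). Cnn1 read 966 and 1146 CPM in EAE 1 and EAE 2, against 606, 566 and 1095 CPM in Healthy 1 to Healthy 3, and was at 0.78 (SE 0.47). With EAE 2 let in, a setting chosen after seeing the data, Acta2 was at -0.35 (SE 0.31) and no gene passed. The standard errors of the 10 genes ran between 0.41 and 0.59, and a test that was not passed does not show equal levels.

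The change in EAE differed between the classes. In 1 fit over all 14 sums with at least 5 cells, the log2 fold change of EAE over Healthy in pericytes minus that in fibroblasts was -4.33 (SE 0.35) for Acta2, -3.59 (SE 0.36) for Tagln, -2.67 (SE 0.41) for Tpm2, -2.59 (SE 0.59) for Des and -2.12 (SE 0.40) for Tpm1. These 5 of 10 passed, where 1.28% of 4063 genes tested did. Myl9, which fell in both classes, had a difference of -0.47 (SE 0.35) that did not pass (adjusted p = 0.811).

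Smooth muscle also differed from fibroblasts. Its log2 fold change minus that in fibroblasts was -2.65 (SE 0.39) for Acta2, -1.80 (SE 0.39) for Tagln and 1.77 (SE 0.38) for Myl9, 3 of 10 genes, where 1.38% of genes tested passed. Actn1, which rose in fibroblasts, had a difference of -1.31 (SE 0.57) that did not pass (adjusted p = 0.428). Against pericytes, smooth muscle had differences of 2.24 (SE 0.41) for Myl9, 1.82 (SE 0.47) for Tpm2, 1.79 (SE 0.39) for Tagln and 1.67 (SE 0.37) for Acta2, 4 of 10 genes, where 0.369% passed. These rest on EAE 1 alone for smooth muscle in EAE, and they share the fibroblast and pericyte sums. With barcodes as deposited 2 genes passed in pericytes against fibroblasts (Tpm1 and Tpm2), 1 in smooth muscle against fibroblasts (Myl9) and 2 in smooth muscle against pericytes (Myl9 and Tpm2). Without Healthy 3, 1 passed in smooth muscle against fibroblasts and 2 in smooth muscle against pericytes, and without EAE 2, 1 passed in smooth muscle against pericytes.

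The wider apparatus was followed in 46 further gene symbols, not all of them measured. In fibroblasts of EAE 11 of the 38 tested were higher and 1 lower, where 9.92% and 10.5% of all genes tested were. The highest were the integrin Itga1 at 2.30 (SE 0.27), the actin-binding caldesmon Cald1 at 1.80 (SE 0.21) and the actin crosslinker Palld at 1.70 (SE 0.22). The 1 that fell was smoothelin, Smtn, a marker of contractile smooth muscle, at -1.07 (SE 0.23). None of the 9 genes of the myosin switch, such as the kinase Mylk and the phosphatase subunit Ppp1r12a, passed in either direction. Of 6 symbols for the factor Srf and its partners 4 were measured and 3 tested, and none of these passed. The symbols not measured are newer names of genes among those 4. The partner Myocd had 0 UMIs in fibroblasts of Healthy 1, Healthy 2 and Healthy 3. The median of the 38 was 0.49.

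In smooth muscle of EAE none of 35 tested genes passed, where 0.439% of all genes tested did, and in pericytes none of 16, where 3.37% did. Between classes, 28 of 40 tested were higher in smooth muscle than in fibroblasts (10.4% of all genes tested), led by Pdlim3 at 8.65 (SE 0.68), Actg2 at 8.0 (SE 0.43) and Nexn at 5.63 (SE 0.33). Actg2 encodes the enteric smooth muscle actin, and its coding sequence is close to that of Acta2. Whether its counts hold reads of Acta2 was not tested. Pericytes were higher than fibroblasts for 20 of 40 (7.6% of all genes tested), among them Actg2 at 5.80 (SE 0.72) and Synpo2 at 3.98 (SE 0.59). Smooth muscle was higher than pericytes for 16 of 29 (13.9% of all genes tested), led by Smtn at 4.95 (SE 0.83), Synm at 3.63 (SE 0.85) and Ppp1r12b at 2.99 (SE 0.78), and lower for 1 (7.94% of all genes tested), Tpm4, a tropomyosin of non-muscle cells, at -1.28 (SE 0.34). The change in EAE in smooth muscle minus that in fibroblasts passed for Smtn at 2.16 (SE 0.60) and for Cald1 at -1.66 (SE 0.41), and that in pericytes minus that in fibroblasts for Nexn at -3.08 (SE 0.87).

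Over the 14 sums, which share libraries and differ in depth, 6 genes outside the 10 followed their mean log2(CPM + 10) most closely. These were Nexn (Pearson's r 0.974), Bcam (0.973), Flna (0.972), Pls3 (0.962), Tinagl1 (0.962) and Myl6 (0.961), of 1485 genes considered. Among the 10 themselves, Tpm2 (0.995), Tagln (0.992) and Acta2 (0.987) lay closest to the mean, which each is a part of, and Cnn2 (0.763), Cnn1 (0.793) and Des (0.833) farthest. Bcam read 784 CPM in smooth muscle, 175 in pericytes and 7.41 in fibroblasts on average over the sums.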

How the data were processed

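Single spinal cord cells sorted for Col1a1GFP were sequenced in 5 libraries, 2 from EAE and 3 from healthy mice, with the 10x Genomics v2 protocol. The authors deposited whole-number UMI counts per gene and barcode, per the file headers not normalized. Cell Ranger 2.1.1, Seurat 3 and the build mm10 are named in the submitters' processing notes. The first batch is EAE 1, Healthy 1 and Healthy 2 and the second EAE 2 and Healthy 3, whose labels alone carry a lane. EAE 1 carries no number in its label and was numbered by order.

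Barcodes under 200 genes or over 10% mitochondrial UMIs were dropped. Doublets were not called; the gates limit the ratio of mural to fibroblast UMIs, and cells with some of both were kept. UMIs were summed per library and class (at least 5 cells) and tested with edgeR 4.0.16 (quasi-likelihood, limma 3.58.1, R 4.3.3), with batch as a term between states and library as a block between classes. Adjusted p-values are Benjamini-Hochberg over all genes tested, with a threshold of 0.05. TMM scaling factors came from genes with at least 5 UMIs expected in the shallowest sum, a choice made after simulated data showed a bias in shallow sums. DESeq2 1.42.0 and other settings were alternatives. Scripts were tested on simulated data. The moderated spread was pooled fully over genes in 6 of the 9 fits, which makes small p-values smaller. The standard errors were derived from the same test statistic and share this limit, so the folds are the firmer values. Shares carry exact Clopper-Pearson 95% intervals, and a count of 0 allows up to 3 counts; both cover counting error only. Class sums held 5120 to 8658915 UMIs.

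The 10 genes and the other lists were chosen with earlier results of these data known. The further genes named are the 3 highest and 3 lowest past the test in each comparison, and the 6 of most similar pattern; a gene that this rule names in pericytes against fibroblasts is not reported here. Promoters are RefSeq sequences (GRCm38.p6).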

Additional observations from a re-analysis of the deposited data

Results flagged for a closer look

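Each of the following is a difference between classes of cells in the log2 fold change of EAE over Healthy, tested as an interaction in 1 fit over 14 sums with edgeR's quasi-likelihood test. In pericytes minus fibroblasts the differences past the threshold were -4.33 for Acta2, -3.59 for Tagln, -2.67 for Tpm2, -2.59 for Des and -2.12 for Tpm1. In smooth muscle minus fibroblasts they were -2.65 for Acta2, -1.80 for Tagln and 1.77 for Myl9. In smooth muscle minus pericytes they were 2.24 for Myl9, 1.82 for Tpm2, 1.79 for Tagln and 1.67 for Acta2. EAE smooth muscle is 1 library in these fits, and the 3 sets of differences share their sums.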

How the results depend on the processing

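The directions of the 6 rises and of the fall of Myl9 in fibroblasts, and of the 8 falls in pericytes, held under each alternative run, with 6 to 7 of the fibroblast genes past the test. In pericytes of EAE 0 genes passed, against 3, without the low-count filter, thinned, without the batch term or in the first batch alone, and 0 to 4 with a library left out. In pericytes against fibroblasts 4 passed, against 7, under a stricter gate. For smooth muscle minus fibroblasts 1 passed with barcodes as deposited and 5 with no limit on Dcn and Col3a1 or with at least 4 cells, against 3, and 1 to 3 with a library left out. For pericytes minus fibroblasts 2 passed as deposited, against 5. For smooth muscle minus pericytes 1 passed with DESeq2, 2 as deposited and 1 thinned, against 4, and 1 to 4 with a library left out. Counts over all genes moved further: in fibroblasts of EAE 2024, against 859 thinned and 2754 without the filter (597 to 2870 with a library left out), in pericytes of EAE 15, against 2 to 40 (0 to 39), in smooth muscle of EAE 7, against 0 to 12, in smooth muscle against pericytes 173, against 56 to 286, against fibroblasts 1666, against 784 to 1784, in pericytes against fibroblasts 940, against 276 to 1037, and in the 3 interactions 56, against 16 to 71, 52, against 17 to 65, and 15, against 3 to 27. Apart from Tpm1 in pericytes against fibroblasts, signs turned only for values that had not passed. For smooth muscle in EAE these were Myl9 at -0.016 (RLE), -0.027 (totals), -0.016 (DESeq2), -0.0063 (no filter), -0.063 (stricter gate), -0.26 (no limit), -0.068 (no cell filter), -0.20 (without Healthy 1) and -0.044 (4 cells); Acta2 at -0.0036 (totals), -0.028 (thinned), -0.47 (no limit), -0.17 (without Healthy 1) and -0.35 (4 cells); Tpm2 at -0.034 (thinned), -0.28 (no limit) and -0.13 (4 cells); Cnn2 at 0.15 (stricter gate), 0.052 (no limit), 0.18 (no cell filter) and 0.0094 (no batch term); Tagln at -0.31 (no limit) and -0.067 (4 cells); and Myh11 at -0.12 and Tpm1 at -0.21 (no limit). For smooth muscle against pericytes they were Cnn2 at 0.043 (at least 1000 UMIs), 0.038 (no limit), 1.11 (10 cells), 0.062 (without Healthy 1), 0.19 (without Healthy 3) and 1.11 (EAE alone) (-0.52 to 0.19 with a library left out), and Des at 0.30 (stricter gate), 0.18 (10 cells), 0.070 (without Healthy 3) and 0.18 (EAE alone) (-0.75 to 0.070 with a library left out). For pericytes against fibroblasts Tpm1 was at -0.072 (stricter gate). In the interactions they were Cnn2 at -0.26 (totals), -0.077 (as deposited), -0.51 (thinned), -0.0042 (without Healthy 3; up to 0.27 without Healthy 1) and -0.14 (4 cells), Cnn1 at -1.36 (thinned), -0.14 (no limit) and -0.068 (without Healthy 2; up to 1.19 without Healthy 3), Myl9 at 0.015 and Myh11 at 1.22 (thinned), and Actn1 at -1.11 (thinned), -0.070 (without Healthy 2) and -0.076 (without EAE 2; up to 0.54 without Healthy 3). The share of fibroblasts with Cnn1 differed by -0.037 (thinned to 2000) and -0.043 (as deposited) percentage points. The cause of these shifts was not tested. The stricter gate and the minimum of 10 cells could not be fitted for pericytes of EAE or for the interactions, nor the interactions and smooth muscle of EAE without EAE 1, nor smooth muscle of EAE in the second batch. No paired analysis was run, since nothing in the labels ties a library to an animal and a shared number does not make a pair. The mural sums rest on 4 to 30 cells each.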

Other observations

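Beyond the contractile genes, EAE fibroblasts with at least 5 Acta2 UMIs differed from EAE fibroblasts without any in the same direction in both libraries for several genes, listed here as values chosen after they were seen. Timp1, an inhibitor of matrix proteases, stood at 5227 and 2013 CPM in EAE 1 and EAE 2, against 1357 and 357 CPM. Cthrc1, a secreted protein of activated fibroblasts, stood at 421 and 441 CPM, against 125 and 97.4 CPM. Cxcl9, an interferon-induced chemokine, stood at 1067 and 528 CPM, against 207 and 75.0 CPM. The transport protein gene Trf stood at 150 and 78.4 CPM, against 1512 and 1717 CPM. The dissociation genes were also lower in these cells, at 2472 and 2310.4 CPM against 5694 and 8609 CPM, and their part was not tested.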
